A study of Mus musculus with 13 samples.

Results

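The nuclear genes of oxidative phosphorylation were followed in primary mouse embryonic fibroblasts cooled to 32°C or kept at 37°C. Genes were chosen by symbol: those starting with Nduf, Uqcr or Atp5, the succinate dehydrogenase genes Sdha to Sdhd, Cox4i1 and Cox4i2, and Cox5, Cox6, Cox7 or Cox8 followed by a, b or c. This took in 89 of the 19938 genes tested. By the known place of their products, 34 belong to complex I, 4 to complex II, 8 to complex III, 19 to complex IV and 17 to complex V, and 7 (Ndufaf1 to Ndufaf7) are assembly factors of complex I. Ndufa4 and Ndufa4l2, named after complex I, were counted with complex IV, where the Ndufa4 protein is found. A further 26 genes fit the rule but had no transcript cluster of their own here: 19 pseudogenes and 7 protein-coding genes. Of the latter, Cox7c, Ndufb4 and Ndufb4b appear only on clusters that carry several symbols, and the others were not analysed here. No gene was dropped for a low value, and 79 of the 89 had a mean signal above the median of all genes tested.

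The cells were commercial primary fibroblasts whose strain and embryonic age the labels do not give, grown in high glucose medium with serum at 37°C. In the hypothermia series the incubator was lowered to 32°C, and in the normothermia series it stayed at 37°C, with arrays at 0.5, 1, 2, 4, 8 and 18 h in each and 1 array at 0 h and 37°C that starts both, 13 in all. Each array carries a pool of RNA from 3 dishes, so no condition has a replicate array. All errors below start from the scatter of arrays around a line over time or between the 6 pairs of arrays of equal time. Each SE and p-value from limma is moderated, the variance of a gene being drawn toward a value common to all genes tested. An SE can thus be larger or smaller than the scatter of that gene alone would give. The number of arrays limits the precision, and a difference of temperature at 1 time cannot be told apart from a difference between its 2 pools of RNA. Values are log2 intensities of the brightest transcript cluster of a gene. They can be compared between arrays for 1 gene and not between genes, and a bulk signal does not separate less RNA per cell from fewer cells. Fibroblast markers were bright on every array (9 of 9 above the median signal, their mean log2 signal between 11.89 and 12.13 at 32°C and between 12.01 and 12.06 at 37°C). Markers of macrophages, endothelium, epithelium, striated muscle and adipocytes averaged between 5.87 and 6.91, where the median of all genes tested was 7.54. Of these 24 markers, 5 lay above that median: Pparg (8.47), Fabp4 (7.93), Tnnt2 (7.70), Krt8 (7.66) and Cd68 (7.65).

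Oxidative phosphorylation turns the energy of nutrients into ATP at the inner mitochondrial membrane. Complex I takes electrons from NADH and complex II from succinate, complex III passes them from ubiquinol to cytochrome c, and complex IV hands them to oxygen, while complexes I, III and IV pump protons whose return flow drives ATP synthesis by complex V. Most subunits are encoded in the nucleus and a few in mitochondrial DNA, so that both genomes must supply each complex except complex II, and the transcription factors NRF1, GABP and YY1 are textbook regulators of the nuclear genes.

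Promoter windows from RefSeq (GRCm38.p6, from 250 bases before to 50 bases after the annotated start) were at hand for 73 of the 89 genes. The letters GCGCANGCG, bound by NRF1, stood on either strand in 21 of these 73 windows (28.8%) and in 10.5% of the windows of 15614 genes tested. CCGGAAG, bound by GABP, stood in 18 (24.7% against 13.6%), AAGATGGCG, bound by YY1, in 7 (9.59% against 2.29%), and TGACGTCA, bound by CREB, in 4 (5.48% against 2.72%). At least 1 of these motifs was found in 41 windows (56.2% against 25%), among them 11 of 15 windows of complex V, 17 of 31 of complex I and 3 of 13 of complex IV, and matches of different motifs shared no bases in any of the 73 genes. The 150 bases before the start are shown for 4 genes that the results below turn on, 5′ to 3′, with matches to a motif in capitals. They are the assembly factor Ndufaf3, Ndufa8 of complex I, and Sdha and Sdhd, subunits of the same enzyme. The window of Ndufaf3 holds none of the 4 motifs, and Ndufa8 has 2 NRF1 matches (both as the reverse complement). Sdha has 3 NRF1 matches, and Sdhd has 1 NRF1 and 1 GABP match (the latter as its reverse complement).
Ndufaf3 (chr9:108567437-108567586, minus strand): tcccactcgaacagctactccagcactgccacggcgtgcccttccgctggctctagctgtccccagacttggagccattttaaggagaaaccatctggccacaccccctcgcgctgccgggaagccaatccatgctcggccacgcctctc
Ndufa8 (chr2:36049339-36049488, minus strand): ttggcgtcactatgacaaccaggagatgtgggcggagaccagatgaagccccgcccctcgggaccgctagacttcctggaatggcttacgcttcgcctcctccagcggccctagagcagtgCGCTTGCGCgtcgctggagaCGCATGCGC
Sdha (chr13:74350241-74350390, minus strand): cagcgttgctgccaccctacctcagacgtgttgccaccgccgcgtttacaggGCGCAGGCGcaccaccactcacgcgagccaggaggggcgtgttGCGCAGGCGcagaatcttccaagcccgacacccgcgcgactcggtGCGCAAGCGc
Sdhd (chr9:50603850-50603999, minus strand): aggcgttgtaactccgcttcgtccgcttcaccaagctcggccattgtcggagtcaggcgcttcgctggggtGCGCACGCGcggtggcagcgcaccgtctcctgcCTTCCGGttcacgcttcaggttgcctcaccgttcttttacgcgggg
A match describes the letters and not binding. The median log2 difference of 32°C over 37°C at matched times, described next, was 0.059 in the 21 genes with an NRF1 match and 0.052 in the 52 without. For GABP it was 0.070 in the 18 genes with a match and 0.050 in the 55 without, for YY1 0.040 in 7 and 0.057 in 66, and for CREB 0.114 in 4 and 0.051 in 69. The difference was positive in 3 of the 4 genes with a CREB match and in 56 of the 69 without. No test set genes with a match against those without.

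Cooling left the nuclear genes of oxidative phosphorylation nearly level, with a small excess of the signal at 32°C over that at 37°C. The difference between the arrays of a pair, averaged over the 6 pairs from 0.5 to 18 h, had a median of 0.050 on the log2 scale over the 89 genes (1.04-fold), against 0.0070 over all genes tested and -0.0016 over the 9969 genes above the median signal. It was positive for 71 of the 89 genes (79.8%), against 53.6% of all genes tested. None of the 89 passed this test (limma, Benjamini-Hochberg adjusted p under 0.05 over all genes, lowest adjusted p = 0.0919), nor did many others (0.015% of all genes tested higher and 0.0552% lower). At an unadjusted p under 0.05, 24 of the 89 (27%) were higher at 32°C and 0 lower, where all genes tested gave 7.13% and 6.39%. With only the genes above the median signal fitted, 25 of 79 (31.6%) were higher and 0 lower, where all such genes gave 10.8% and 8.79%. Without the pair at 2 h the 24 became 15 (16.9% against 5.61%), and without any other single time point they were between 18 and 25. Some marker lists had median pair differences of like size, and others had smaller ones. The median pair difference was -0.049 over the 9 fibroblast markers (2 positive, late median -0.10), with Pdgfrb at -0.16 and Col1a1 at -0.14. It was 0.029 over the 5 macrophage markers (4 positive, late median 0.097), of which Cd68 was higher in 6 of 6 pairs, 0.063 over the 4 of epithelium, 0.0099 over the 6 of striated muscle, 0.0016 over the 5 of adipocytes and -0.012 over the 4 of endothelium. None of these markers passed in this comparison, and their part in the excess was not tested.

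The excess was present at every time. The median pair difference of the 89 genes was 0.087 at 0.5 h, 0.020 at 1 h, 0.10 at 2 h, 0.039 at 4 h, 0.068 at 8 h and 0.034 at 18 h (SD of the 6 medians 0.033). The genes above the median signal had medians of 0.031, 0.038, 0.032, -0.011, -0.015 and -0.038 at the same times. Against these bright genes the 89 lay higher in 5 of the 6 pairs and lower in the pair at 1 h. Set against the array at 0 h, the median change of the 89 genes at 0.5 h was 0.045 at 32°C and -0.055 at 37°C, and at 18 h it was 0.020 and -0.0096. At 37°C the median stayed below the 0 h array at all 6 times, lowest at 1 h with -0.075. At 32°C it was above the 0 h array at 5 of 6 times and below it at 1 h (-0.050). All these changes rest on the same array at 0 h.

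**Figure D1:**
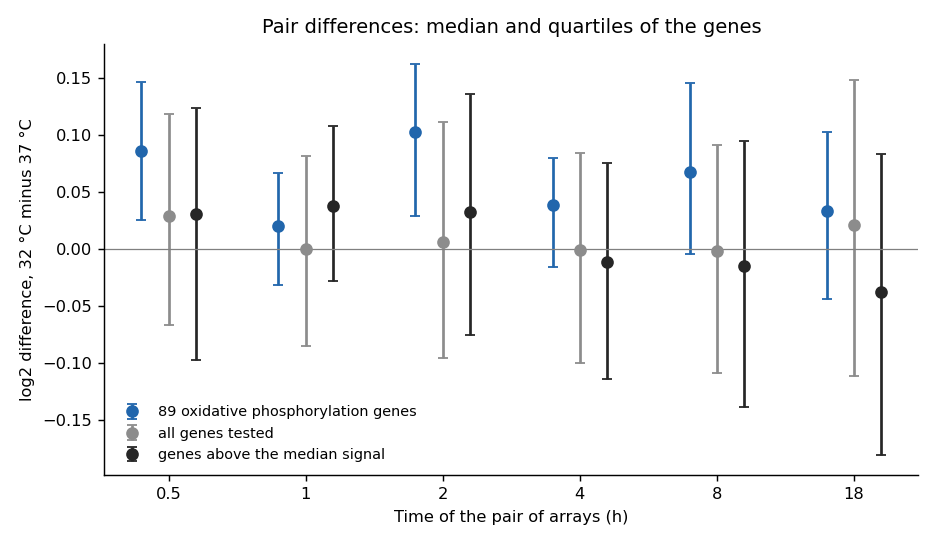
Log2 difference of 32°C minus 37°C (vertical axis) in each pair of arrays from 0.5 to 18 h (horizontal axis). Points are medians over genes and bars run from the lower to the upper quartile, for the 89 oxidative phosphorylation genes, all genes tested and the genes above the median signal. The medians of the 89 genes lie above 0 in all 6 pairs and are highest at 2 h (0.10) and lowest at 1 h (0.020).

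Counted gene by gene, the same pair differences had the same direction. These counts use the same arrays as the medians above, and genes read on the same arrays are not independent of each other. In 29 of the 89 genes (32.6%) the 32°C array was the higher of each of the 6 pairs, against 4.79% of all genes tested, and in 1 gene (1.12%), the assembly factor Ndufaf5, it was the lower of each, against 2.92%. For the 79 of them above the median signal the counts were 29 and 0, and for all 9969 such genes 774 and 420. The 6 arrays at 32°C all lay above the 6 at 37°C in 6 genes (6.74% against 0.863%): Ndufa10, Ndufb7, Ndufv1 and Ndufv3 of complex I, Sdhb of complex II and Cox4i1 of complex IV. The reverse was found in 0 of the 89, against 0.451% of all genes tested. Of the 9969 genes above the median signal, 159 lay wholly above and 72 wholly below. Ndufaf5, Ndufa10, Ndufb7, Ndufv1 and Ndufv3 are named here because of these values.

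Because both courses leave a common start, the pair differences were also fitted by a line held at 0 at 0 h. Its slope per time point, in the order of the 7 times, is called the divergence, and a constant offset from 0.5 h on also adds to it. The median divergence of the 89 genes was 0.012 against 0.0020 over all genes tested. Only Ndufaf3 passed (1 of 89 higher, where 1.17% of all genes tested were called higher, and 0 lower, where 1.66% were). The share called higher is near that of all genes. At an unadjusted p under 0.05, 18 were higher (20.2%, against 8.52%) and 1 lower (against 9.9%). Of the 9969 genes above the median signal, 1096 were higher and 1522 lower at that level. With a separate term for the level at 32°C, the median difference of slopes was 1.61e-04, 45 of the 89 were positive and 0 passed (0.015% of all genes tested were called higher and 0.00502% lower in that fit). The genes above the median signal had a median of -0.0139 there, with 3857 of 9969 positive. The comparisons by pairs, by divergence and by late times use the same arrays and are not independent of each other.

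Ndufaf3, the gene that passed, encodes a factor that helps to build the early subassemblies of complex I (chr9:108565587-108567436). Its log2 signal was 9.29 at 0 h. At 37°C it was 9.25 at 0.5 h, 9.09 at 1 h, 9.08 at 2 h, 9.06 at 4 h, 9.09 at 8 h and 9.32 at 18 h, and at 32°C it was 9.34, 9.29, 9.47, 9.33, 9.36 and 9.59 at the same times. At 37°C the signal was thus low from 1 to 8 h and back at its start by 18 h, while at 32°C it stayed at or above the start, to 2 decimals, and was highest at 18 h. Of the 6 arrays at 32°C, 5 lay above all 6 at 37°C, and the one at 1 h lay under the 37°C array of 18 h. The divergence was 0.064 per time point (SE 0.013, limma adjusted p = 0.0316), higher in 6 of 6 pairs, and the mean pair difference was 0.25 (SE 0.048, 1.19-fold, adjusted p = 0.0919). The call was lost without the arrays of 0.5 h (adjusted p = 0.0523), 4 h (0.0924), 8 h (0.117) or 18 h (0.0638) and with a level term (0.683), with the slope positive in each.

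The other 6 assembly factors had smaller mean pair differences, positive for Ndufaf7 (0.078, SE 0.050, higher in 5 of 6 pairs) and Ndufaf6 (0.0305, SE 0.052, 4 of 6) and negative for the rest. No test set them against Ndufaf3. The median over the 7, Ndufaf3 included, was -0.021, and it crossed 0 when a time point was left out. Ndufaf1, which joins the membrane arm of complex I and is named here for its values, had the lowest signal of its 13 arrays at 18 h at 32°C (8.44, against 8.90 at 37°C and 9.07 at 0 h). Its pair differences at 0.5 and 2 h were positive, and the late temperature effect, the mean difference at 4, 8 and 18 h, was -0.26 (adjusted p = 0.123). Ndufaf5, which modifies a complex I subunit, lay lower at 32°C in 6 of 6 pairs with a mean difference of -0.11 (SE 0.050, adjusted p = 0.38).

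**Figure D2:**
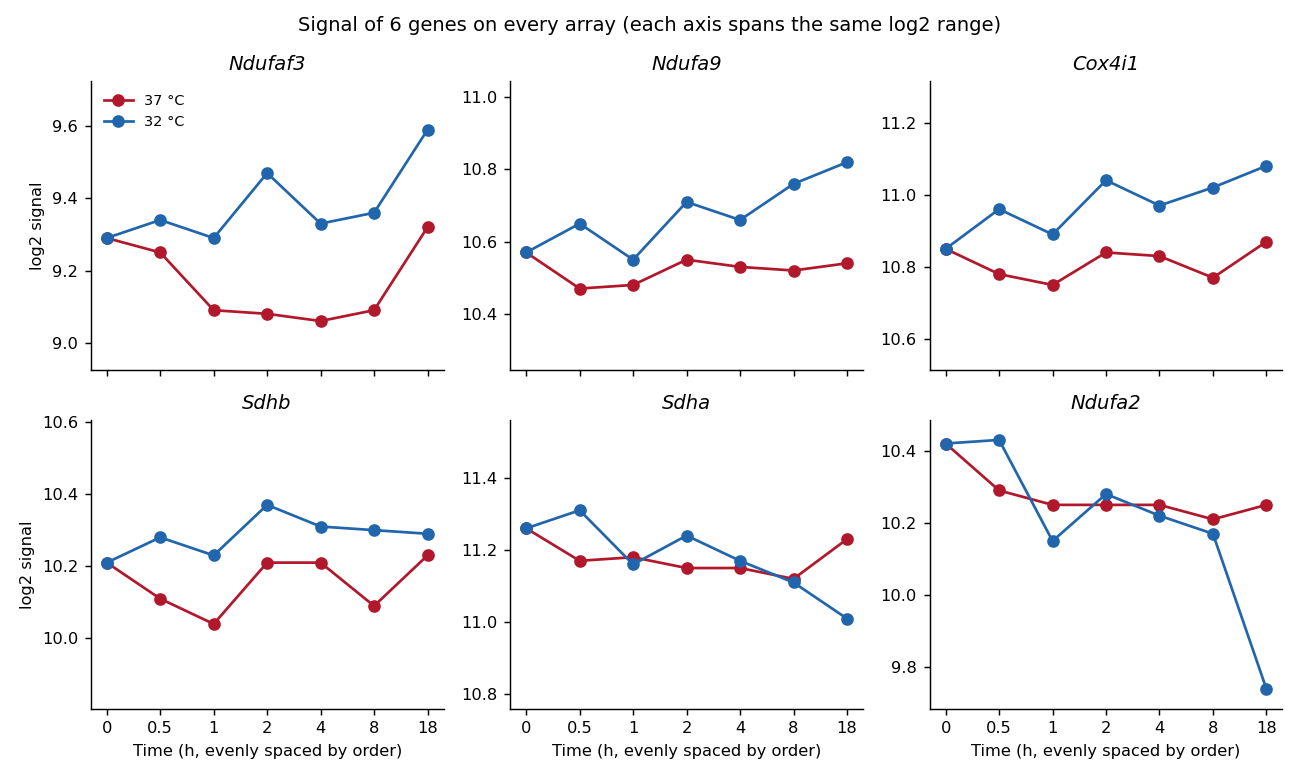
Log2 signal (vertical axis, the same span in each panel) of Ndufaf3, Ndufa9, Cox4i1, Sdhb, Sdha and Ndufa2 on all 13 arrays over time in h, spaced by order (horizontal axis). Each point is 1 array, and both lines start from the same array at 0 h. The 32°C line runs above the 37°C line for the genes Ndufaf3, Ndufa9, Cox4i1 and Sdhb, and it ends below it for Sdha and for Ndufa2, whose array at 18 h reads 9.74.

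Complex I genes were mostly a little higher at 32°C, with none past the threshold. The median pair difference over the 34 genes was 0.066 (SD 0.042 over the 6 pair medians), positive for 29 of 34, and 33 of the 34 were higher at 2 h. The genes for the electron-transferring core and its neighbours, with Ndufs and Ndufv symbols, had a median of 0.076 (9 of 10 positive), and those with Ndufa, Ndufab, Ndufb and Ndufc symbols 0.066 (20 of 24 positive). Ndufa9, a subunit near the site where ubiquinone enters (chr6:126821863-126849144), came closest to the threshold among the 34. Its log2 signal was 10.57 at 0 h, then 10.47, 10.48, 10.55, 10.53, 10.52 and 10.54 at 37°C and 10.65, 10.55, 10.71, 10.66, 10.76 and 10.82 at 32°C. The 37°C values stayed below the start, and those at 32°C were above it except at 1 h, so that only the array at 1 h fell within the range at 37°C. The divergence of Ndufa9 was 0.046 per time point (SE 0.011, limma adjusted p = 0.0528), and its mean pair difference was 0.18 (SE 0.044). Its divergence passed with quantile normalization (limma adjusted p = 0.0479) and under 3 other alternatives, among them the centring added after seeing the data. It did not pass under the rest, among them each time point left out.

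Ndufa8, a subunit facing the intermembrane space, gave a divergence of 0.037 (SE 0.011, adjusted p = 0.102). Its signal ran from 10.94 to 11.04 with a median of 10.97 on the 6 arrays at 37°C and from 11.01 to 11.27 with a median of 11.12 at 32°C. Ndufv1, which holds the flavin that takes electrons from NADH, ran from 10.68 to 10.77 at 37°C and from 10.78 to 10.95 at 32°C. The 2 ranges of Ndufv1 did not overlap, and those of Ndufa8 overlapped through the array at 1 h. Ndufs7, an iron-sulfur subunit, overlapped almost fully, with 12.40 to 12.54 at 37°C, 12.40 to 12.59 at 32°C and a mean pair difference of 0.020 (SE 0.040).

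A few complex I genes were low at 18 h at 32°C. Ndufa2, a small peripheral subunit, had the lowest divergence of the 34 at -0.037 (SE 0.017, adjusted p = 0.264). Its signal at 32°C was 10.43, 10.15, 10.28, 10.22, 10.17 and 9.74 from 0.5 to 18 h, and at 37°C it was 10.29, 10.25, 10.25, 10.25, 10.21 and 10.25, after 10.42 at 0 h. The array at 18 h stood alone, with a pair difference of -0.51, and the pairs at 0.5 and 2 h had the opposite sign. Ndufb2, an accessory subunit of the membrane arm, gave 7.02 at 32°C and 7.42 at 37°C at 18 h, with 4 of its 6 pairs higher at 32°C (mean pair difference -0.048, SE 0.068).

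In complex II, which also serves in the TCA cycle, 2 genes were higher at 32°C in 6 of 6 pairs and 2 were not. No test set these genes against each other. Sdhb, the iron-sulfur subunit, was 10.21 at 0 h, then 10.11, 10.04, 10.21, 10.21, 10.09 and 10.23 at 37°C and 10.28, 10.23, 10.37, 10.31, 10.30 and 10.29 at 32°C. All 6 arrays at 32°C lay above the 6 at 37°C, the 1 h array by less than the rounding shown. The mean pair difference was 0.15 (SE 0.042, adjusted p = 0.178). Sdhd, a membrane anchor, was higher in 6 of 6 pairs as well (0.12, SE 0.045, adjusted p = 0.287). Sdha, the flavoprotein that oxidizes succinate, had a mean pair difference of 0.0022 (SE 0.053), and Sdhc, the other anchor, 0.022 (SE 0.050), each with the largest negative difference at 18 h. The signal of Sdha at 32°C was 11.31, 11.16, 11.24, 11.17, 11.11 and 11.01 after 11.26 at 0 h, a fall by an exact 1-sided Kendall test over the 7 times (tau -0.714, p = 0.0151, not adjusted), and at 37°C it lay between 11.12 and 11.23. Sdha carries the 3 NRF1 matches printed above and Sdhd carries 1. Whether the motif bears on the course of either gene was not tested.

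Complex III had the highest median of the 5 complexes, 0.099 (SD 0.030), with 7 of 8 genes positive and none past the threshold. Uqcrq, a small subunit at the ubiquinone-binding end, was between 10.45 and 10.68 at 37°C (median 10.54) and between 10.56 and 10.79 at 32°C (median 10.70), higher in 6 of 6 pairs with a mean difference of 0.14 (SE 0.045, adjusted p = 0.232). Uqcr10, another small subunit, reached its highest value, 10.71, at 18 h at 32°C, where the 37°C array read 10.44. Uqcrc2, a core protein, gave 0.086 (SE 0.043). Uqcrb was the gene of opposite sign. Its arrays at 0.5 and 1 h at 32°C read 11.77 and 11.81, where all other arrays lay between 12.01 and 12.11, and its other 2 transcript clusters gave mean pair differences close to that of the brightest (-0.057 and -0.058 beside -0.060). Uqcr11 overlapped fully between temperatures (0.032, SE 0.048).

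Complex IV had the lowest median of the 5 complexes, 0.026 (SD 0.041), with 14 of 19 genes positive. It lay between 0.012 and 0.043 with a time point left out, and over the 11 genes that are not isoforms of restricted tissues or conditions it was 0.051, above the 0.045 of complex V. The gene with the highest value was Cox4i1, the common isoform of a subunit through which ATP inhibits the enzyme (chr8:120668225-120674209). Cox4i1 read 10.85 at 0 h, then 10.78, 10.75, 10.84, 10.83, 10.77 and 10.87 at 37°C and 10.96, 10.89, 11.04, 10.97, 11.02 and 11.08 at 32°C. All 6 arrays at 32°C lay above all 7 at 37°C, the 0 h array included. The mean pair difference was 0.19 (SE 0.041, 1.14-fold, limma adjusted p = 0.119) and the divergence 0.046 per time point (SE 0.012, adjusted p = 0.0592). The divergence passed with quantile normalization (limma adjusted p = 0.0476) and under 3 other alternatives, among them the centring added after seeing the data. It did not pass under the rest, among them each time point left out. Cox4i2, its isoform of lung and of cells short of oxygen, gave 0.026 (SE 0.045), with ranges of 7.59 to 7.74 at 37°C and 7.63 to 7.76 at 32°C.

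The other isoform families of complex IV had smaller differences, and none passed. Cox6b1 was higher at 32°C in 6 of 6 pairs, by 0.071 on average (SE 0.040), and the testis isoform Cox6b2 in 5 of 6 (0.093, SE 0.050). Cox6a1 gave 0.051 (SE 0.041) and the heart and muscle isoform Cox6a2 0.026 (SE 0.059), Cox7a2 0.0076 (SE 0.041), the muscle isoform Cox7a1 -0.029 (SE 0.054) and Cox7a2l, which joins complexes III and IV, 0.061 (SE 0.044). Cox8a gave 0.037 (SE 0.043), the muscle isoform Cox8b 0.047 (SE 0.060) and the testis isoform Cox8c 9.32e-04 (SE 0.056). Of these 10 genes only Cox6b1 kept 1 sign in all pairs. Over the 8 isoforms of restricted tissues or conditions, Ndufa4l2 and Cox7b2 included, the median was 0.014, and over the other 11 genes it was 0.051. Cox6c was lower at 32°C in 5 of 6 pairs by a mean of 0.032 on the log2 scale (SE 0.040). Cox7b2, a testis isoform with signals between 4.41 and 4.71, far under the median of all genes tested, was lower in 5 of 6. Ndufa4 gave 0.012 (SE 0.051). Ndufa4l2, known as a target of hypoxia signalling, gave -0.023 (SE 0.046), and it was among the genes that fell by the Kendall test at both temperatures.

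The ATP synthase genes of complex V had a median pair difference of 0.045 (SD 0.039), with 14 of 17 positive. Atp5l, subunit g of the membrane part, was the highest. It read 10.10 at 0 h, then 9.96, 10.02, 10.03, 10.06, 10.05 and 10.15 at 37°C and 10.13, 10.18, 10.26, 10.20, 10.21 and 10.33 at 32°C. The 0.5 h array at 32°C was the only one of its series within the range at 37°C. The mean pair difference was 0.17 (SE 0.040, SD of the 6 pairs 0.032, adjusted p = 0.131), and the other 5 transcript clusters named Atp5l gave values between 0.14 and 0.17. Atp5d and Atp5b, the delta and beta subunits of the catalytic head, overlapped at both temperatures: Atp5d was 13.34 to 13.41 at 37°C and 13.35 to 13.40 at 32°C, and Atp5b stayed between 13.05 and 13.09 on all 13 arrays. The 3 genes for the same ring subunit c gave 0.028 (Atp5g1, SE 0.045), 0.042 (Atp5g2, SE 0.041) and 0.10 (Atp5g3, SE 0.046, adjusted p = 0.368). Atp5j, coupling factor 6 of the stalk, was lower in 5 of 6 pairs (-0.057, SE 0.045). Atpif1, the inhibitor of the ATP synthase and not among the 89 by its symbol, was higher in 6 of 6 pairs by 0.067 (SE 0.040, adjusted p = 0.513).

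The order of the complexes by their median pair difference was III, II, I, V and IV, from 0.099 to 0.026. The last place rests on the restricted isoforms of complex IV, without which complex V has the lowest median. Neighbours in this order differed by less than the SD of their pair medians. The highest and the lowest, complexes III and IV, differed by 0.073, with pair medians between 0.0415 and 0.125 for complex III and between -0.032 and 0.071 for complex IV, ranges that overlap. Complex IV stood apart at 2 h, with a median of -0.0078, where complexes I, II, III and V had medians of 0.125, 0.13, 0.125 and 0.105. Over the 11 genes of complex IV that are not isoforms of restricted tissues, the median at 2 h was 0.087 and at 1 h -0.032.

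**Figure D3:**
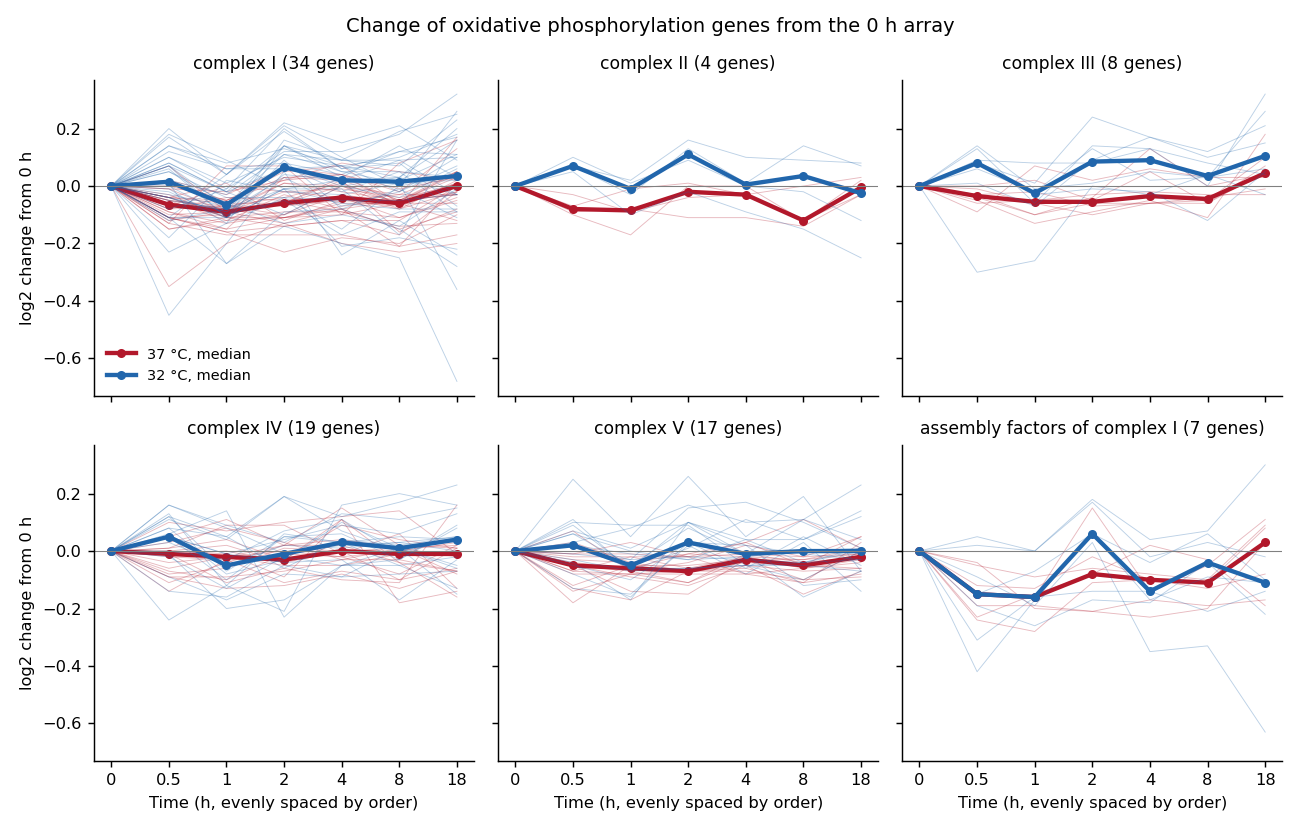
Log2 change from the 0 h array (vertical axis) over time in h, spaced by order (horizontal axis), for the genes of each complex and the assembly factors of complex I. Thin lines are genes and thick lines with points their medians, at 32°C and at 37°C. The medians of complexes I, III and V at 32°C lie above those at 37°C at all 6 times.

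**Figure D4:**
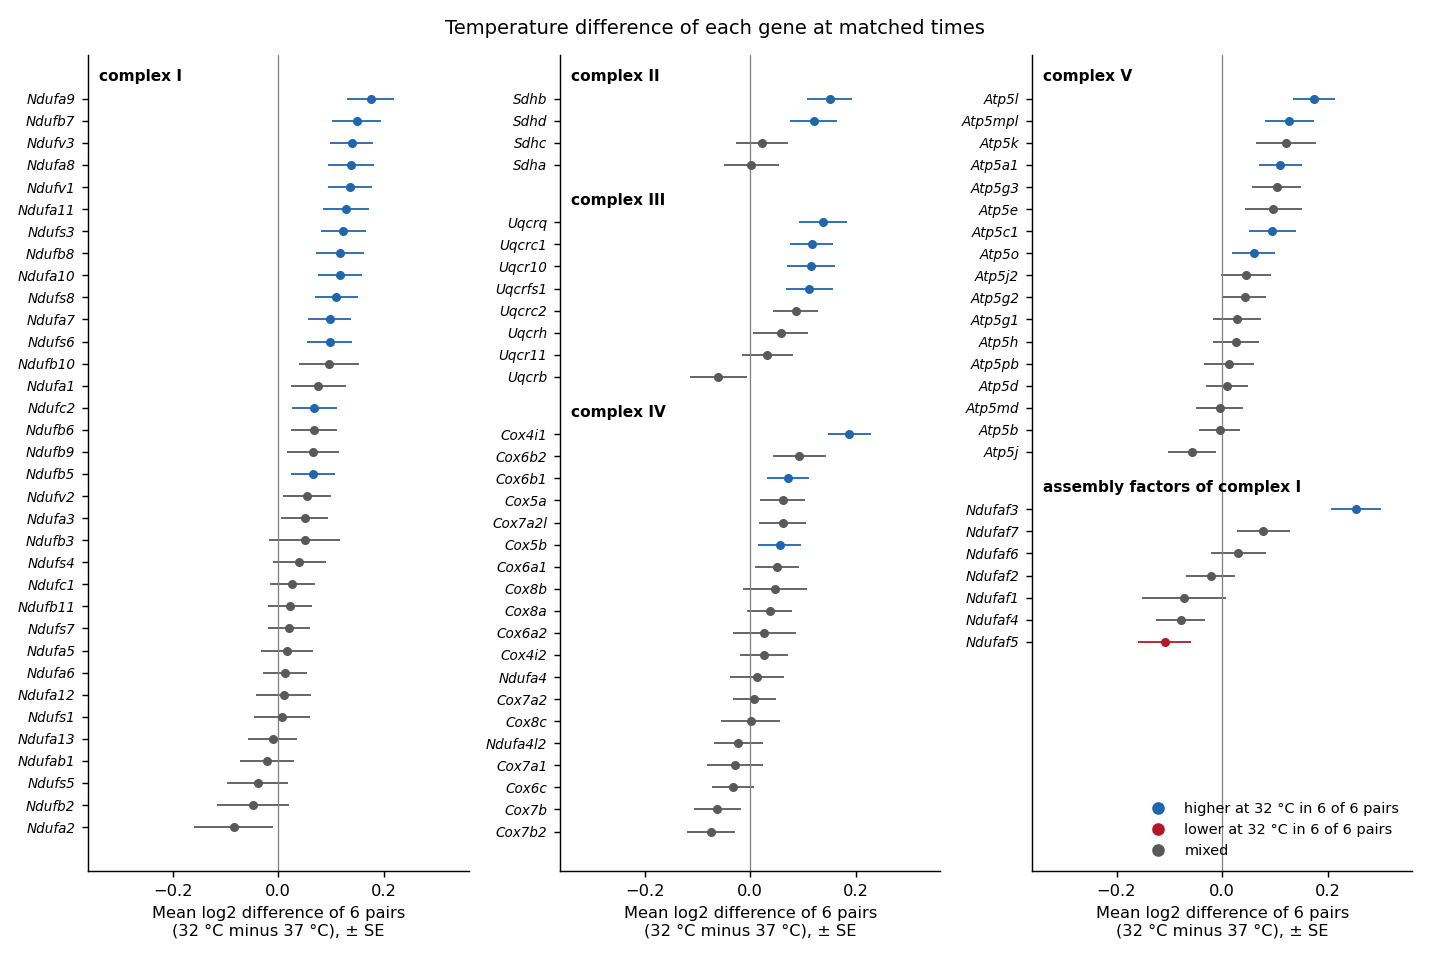
Mean log2 difference of 32°C minus 37°C over the 6 pairs (horizontal axis) with its SE from limma for each of the 89 genes, grouped by complex. Colours mark the 29 genes higher at 32°C in 6 of 6 pairs and the 1 gene lower in 6 of 6. Ndufaf3 (0.25), Cox4i1 (0.19), Ndufa9 (0.18) and Atp5l (0.17) stand highest.

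None of the 89 genes passed the limma test of its slope over time. The slope over the 7 times had a median of 0.0033 per time point at 32°C and -3.28e-05 at 37°C over the 89 genes, against 0.0047 and 0.0022 over all genes tested, with 0 of the 89 past the threshold at either temperature (limma). All genes tested gave 0.0451% higher and 0.0502% lower at 32°C, and 0% in both directions at 37°C. At an unadjusted p under 0.05, 3 of the 89 had a higher and 3 a lower slope at 32°C (7.14% and 9.35% of all genes tested), and 0 and 0 at 37°C (3.62% and 2.18%). By an exact 1-sided Kendall test per gene, 8 of the 89 rose steadily at 32°C (8.99% against 8.82% of all genes tested), among them Ndufaf3, Ndufa9, Cox4i1, Cox6a1 and Atp5l. Another 6 fell (6.74% against 8.44%): Ndufaf1, Ndufa2, Ndufab1, Sdha, Ndufa4l2 and Atp5e. At 37°C Ndufa1 rose (1.12% against 4.99%), and Ndufa4l2 and Atp5g2 fell (2.25% against 3.3%). These shares are near or below those of all genes. Without the 0 h array the counts were 4 rising and 3 falling at 32°C and 8 and 0 at 37°C. The share of all genes tested was not computed without that array.

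The late temperature effect, at 4, 8 and 18 h, had a median of 0.048 over the 89 genes, against 0.0099 over all genes tested and -0.025 over those above the median signal. None of the 89 passed, where 0.802% of all genes tested were called higher and 2.15% lower, and 9 were higher at an unadjusted p under 0.05 (10.1% against 7.62%) and 1, Ndufaf1, lower (against 10.8%). The share higher is near that of all genes. Of the 9969 genes above the median signal, 902 were higher and 1722 lower at that level. The highest was again Ndufaf3 (0.275, SE 0.069, limma adjusted p = 0.0666). It passed with quantile normalization (limma adjusted p = 0.0491) and under 3 other alternatives, among them the centring added after seeing the data. It did not pass under the rest, among them each time point left out.

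Gene lists around the respiratory chain gave few calls. Of 41 assembly factors outside the rule, 37 were measured, and in the divergence 1 was called higher and 1 lower, Foxred1 (0.073 per time point, SE 0.011, limma adjusted p = 0.0159, higher in 5 of 6 pairs) and Tmem126b (-0.077, SE 0.018, adjusted p = 0.0482, lower in 5 of 6), both needed to build complex I, where 1.17% of all genes tested were called higher and 1.66% lower. In the late effect Foxred1 was called higher (0.351, SE 0.075, adjusted p = 0.0418) and Timmdc1 (-0.471, SE 0.092, adjusted p = 0.0344) and Tmem126b (-0.444, SE 0.092, adjusted p = 0.0388) lower, against 0.802% and 2.15% of all genes tested. The median pair difference of the 37 was 0.039, with 28 positive. Of 17 genes of the TCA cycle and pyruvate dehydrogenase 16 were measured and 0 passed in the divergence (median pair difference 0.042, 13 of 16 positive), and of 18 genes of electron carriers and coenzyme Q synthesis 17 were measured and 0 passed (0.054, 13 of 17 positive). The 12 regulators of mitochondrial biogenesis went the other way in their median (-0.048, 4 of 12 positive), with 0 past the threshold in the divergence and 1, Tfb1m, lower in the late effect (-0.583, SE 0.113, adjusted p = 0.0339, against 2.15% of all genes tested). The 13 subunits encoded by mitochondrial DNA were not analysed here.

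Several of these genes have processed copies elsewhere in the genome, and which copy a transcript cluster reads was not determined. Of the 89 genes, 17 had several transcript clusters, and 23 of their 25 dimmer clusters gave a mean pair difference of the same sign as the brightest. The exceptions were a cluster each of Ndufab1 and Ndufc1, whose values were near 0 in both clusters. Over the 72 genes with 1 transcript cluster, the median pair difference was 0.058 and 59 were positive, and over the 17 with several it was 0.026 and 12 were positive.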

How the data were processed

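Per the labels, RNA of 3 dishes per condition was pooled, amplified, labelled and hybridized to 1 Affymetrix Mouse Gene array, 13 in all. For each of 28853 transcript clusters the authors deposited an intensity per array, on a linear scale. Probe summarization and normalization were not given in the sources used here. Array medians lay between 145 and 149.8, so values were log2 transformed as deposited. Clusters were named from the platform annotation and updated through RefSeq (GRCm38.p6). Those with several symbols (1621) or not listed (5443) were left out, and the brightest cluster stood for each of 19938 genes. No measured column was unused.

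Models were fitted over all genes with limma 3.58.1 (lmFit, eBayes) in R 4.3.3 and tested on simulated data, with p-values adjusted by Benjamini and Hochberg at 0.05, 2-sided. They were the slope on the order of the 7 times at 32°C and at 37°C, the divergence (32°C by order, time as a block), the mean of 6 pair differences, and the late mean at 4, 8 and 18 h with a separate early term. Kendall's tau was tested exactly, 1-sided, per gene. Python 3.11.15 and matplotlib 3.10.9 drew the figures. Genes named in the text are the brightest of each complex, the 2 with the highest and the 2 with the lowest divergence in each, any past a threshold, and fixed isoform families. Others were named after their values were seen, as the text says. The members, lists and tests were chosen with earlier results of these data known. Alternatives were quantile normalization, ranks, a filter on signal, the mean of clusters, eBayes with trend and robust prior, leaving out each time, a log2 time axis, a level term, late arrays alone and complexes by symbol prefix. Centring each array on the genes above the median signal was added after seeing the data.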

Additional observations from a re-analysis of the deposited data

Results flagged for a closer look

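Ndufaf3 is listed because it passed the limma test of the divergence, to which a constant offset between the temperatures also adds. Its divergence at 32°C from 37°C was 0.0637 on the log2 scale per time point (limma adjusted p = 0.0316), with the 32°C array higher in 6 of 6 pairs. With a level term the difference of slopes was 0.0281 (limma adjusted p = 0.683), and the mean pair difference did not pass (0.0919). The call held in 10 of 15 alternatives, some of which could not change it, such as leaving out the 0 h array. It was lost without the arrays of 0.5, 4, 8 or 18 h as well as with the level term. No group held 4 or more replicate arrays, so no array could be tested as lying far from its group.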

How the results depend on the processing

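The median pair differences of the 89 genes, of the 5 complexes and of the assembly factors moved by less than the SD of their pair medians under every alternative run. With a time point left out they ranged from 0.046 to 0.063 for the 89 genes, 0.052 to 0.073 for complex I, 0.058 to 0.090 for complex II, 0.084 to 0.12 for complex III, 0.012 to 0.043 for complex IV, 0.036 to 0.058 for complex V and -0.044 to 0.0041 for the assembly factors. The count of the 89 genes called higher in the divergence, 1 as reported, was 3 with quantile normalization, 3 with the genes above the median signal alone, 4 with a trended robust prior, 3 with the centring chosen after seeing the data, 0 with a level term, and 0 to 1 with a time point left out. The genes added were Ndufa9 and Cox4i1 in each of the 4 settings and Ndufa8 with the trended robust prior. In the late effect 0 became 1 with quantile normalization and with the added centring, and 3 with the genes above the median signal alone and with the trended robust prior. Ndufaf3 was called in each of these. The share of all genes tested that was called under these settings was not computed, so these counts have no background beside them. The filter tests fewer genes, and the cause of the other changes was not tested. In the steady trend at 32°C, 8 rising genes became 4 and 6 falling became 3 without the 0 h array. At 37°C, 1 rising gene became 8 without the 0 h array and 3 with the mean of clusters, and 2 falling became 0 without the 0 h array and 1 with the signal filter. Here too the share of all genes tested was not computed for the alternatives. Over 39 named genes, 2673 of 2695 alternative values stayed on their side of the threshold and 0 reversed a call. The only main value among them that passed was the divergence of Ndufaf3, which was kept in 10 of 15 alternatives. Nearly all the others were not calls and remained so. Some alternatives could not change a value, such as leaving out the 0 h array in the divergence, so the count is no measure of robustness. Arrays were paired by time in each comparison of the temperatures, and no replicate block was added because the labels give no replicate numbers. With 1 array per condition, the SE of the mean pair difference of single genes lay between 0.039 and 0.079. A difference of several SE could still fail: Ndufaf3, at 0.253 with an SE of 0.0478, did not pass (limma adjusted p = 0.0919).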
